A study of Schizosaccharomyces pombe with 9 samples.

Results

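The aps1 deletion strain of the fission yeast Schizosaccharomyces pombe was compared with wild type (WT) over the protein-coding genes of the nuclear genome, described by function. The deletion strain, aps1∆ or AS 1884 in the labels, had 3 libraries numbered 1 to 3, and the WT strain, JS 77, had 3 libraries numbered 4 to 6, so that 6 of the 9 libraries of the series entered the comparison. The remaining 3 were of an asp1-D333A strain. Strains were in vegetative growth, sampled in log phase at 30ºC in YES, a rich medium, and differed as far as the labels say in aps1 alone. Poly(A)-selected RNA was sequenced, and the deposited values were read counts per feature. Protein-coding genes were taken as the identifiers that start with SPAC, SPBC, SPCC, SPAP, SPBP or SPCP and are protein-coding in the annotation, which gave 5109 of the 6986 identifiers. Of these, 4979 had enough counts to be tested. Each group was a single strain, and the labels speak of 3 replicate experiments without saying how they were separated. The p-values therefore measure the spread between libraries, estimated over all 9 of the series with asp1-D333A included.

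Aps1 is a hydrolase of the Nudix family that breaks down inositol pyrophosphates, small signalling molecules in which chains of phosphate sit on an inositol ring. Asp1 makes them with its kinase domain and removes them with a phosphatase domain. In yeasts the molecules are bound by SPX domains, which occur in proteins that govern phosphate uptake and storage. In fission yeast the phosphate genes pho1, pho84 and tgp1 are kept low in phosphate-rich medium by transcription of non-coding RNAs just upstream of them.

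The deleted gene was examined first. Counts of aps1 (SPAC13G6.14, chromosome I) were 224, 137 and 155 in the deletion libraries and 2634, 2537 and 2516 in WT, so that reads remained at 5.60% to 8.37% of the mean WT level. Among the 3 coding genes on either side of it, chs1, a chitin synthase gene that lies 2 coding genes away, rose in the deletion. It was at 48.6, 41.1 and 40.9 CPM (counts scaled to a common library size) in the deletion libraries, against 30.4, 25.1 and 27.1 CPM in WT. Its log2 fold change was 0.66, with a standard error (SE) of 0.10 and an adjusted p of 6.5e-04. The p-values here and below are those of edgeR's quasi-likelihood test after Benjamini-Hochberg adjustment over the 6147 features tested, and fold changes are those of the aps1 deletion over WT. The other neighbours erg12, rcn1, SPAC24B11.05 and sty1 were not called, and SPAC13G6.13, with at most 4 counts in any of the 6 libraries, was not tested.

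Total counts were 19484017 to 20246140 in the deletion libraries and 18244492 to 20166818 in WT, with 98.7% to 98.9% of the counts in coding genes in the deletion and 98.5% to 98.7% in WT. The mating gene map2, for the pheromone P-factor, and mam2, for its receptor, were both detected in all 6 libraries, at 136 to 154 and 195 to 236 counts in the deletion and 179 to 250 and 268 to 296 counts in WT. The marker gene ura4 and the mating type genes mat1-Mc and mat1-Mi had 0 counts in all 6 libraries.

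Most changes in coding genes were small. At an adjusted p under 0.05 the test called 680 of the 4979 coding genes (13.7%; over all 6147 features, 16.6%). Of these, 384 were higher in the deletion (7.71%) and 296 were lower (5.94%). The median change was 1.26-fold among the higher calls and 1.36-fold among the lower calls, and 87.0% and 65.5% of them were under 1.5-fold. A change of at least 2-fold was found in 73 coding genes (1.47%), 23 higher and 50 lower, and these counts include aps1 itself. The share of higher calls, 56.5%, depended on the scaling. It was 61.3% with DESeq2, 40.8% with upper-quartile scaling and 35% with total counts only, although the median log2 fold change of coding genes stayed between -0.04 and 0.03 under these choices. The number of calls depended on single libraries. It was 332 without aps1 deletion replicate 2, 366 without WT replicate 5, 367 without aps1 deletion replicate 3 and 382 without WT replicate 6, and it was 1245 without asp1-D333A replicate 3, which enters only the filter, the scaling and the shared estimate of spread.

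**Figure D1:**
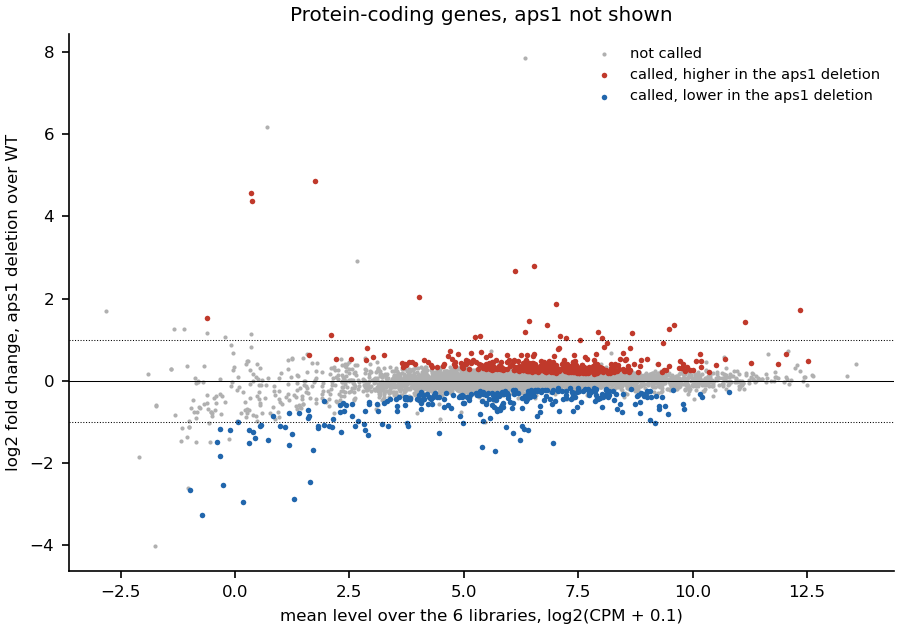
Log2 fold change of each tested coding gene, aps1 deletion over WT, against its mean level over the 6 libraries as log2(CPM + 0.1), with dotted lines at a 2-fold change. Called genes are coloured by direction, most lie within the dotted lines, and the topmost grey point is gdt1, at a log2 fold change of 7.86, which was not called.

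The coding genes were then read through 44 lists of genes by function. For each list the calls are set beside the 7.71% of all tested coding genes that were higher and the 5.94% that were lower. Among the shares of higher calls above this background were 72.7% for phosphate (counting pho1, pho84 and tgp1, whose rise was known when the list was made), 47.1% for flocculation, 25% for sterol, 19.5% for transporter and 17.6% for glycolysis genes, 15% for S-phase, cell wall and cell surface genes, 14.3% for replication and 11.8% for nitrogen genes. Among those of lower calls were 45% for Sty1 stress, 33.3% for iron, 29.4% for nitrogen, 26.1% for mating, 23.1% for hexose and 20% for tricarboxylic acid cycle genes, 18.2% for meiotic and oxidative stress genes, 16.7% for dehydrogenases, 14.5% for amino acid biosynthesis and 14.3% for chaperones. Some of these shares rest on few genes. Higher calls were 3 each for glycolysis, S-phase, cell wall and cell surface genes, 4 for replication and 2 for nitrogen genes. Lower calls were 3 each for hexose, tricarboxylic acid cycle and chaperone genes, and 4 each for meiotic and oxidative stress genes. All 3 cell surface calls are flocculation genes counted again. The lists of glycolysis, nitrogen and transporter genes were among those above the background in both directions. The lists of copper and zinc homeostasis, ribosome biogenesis, aminoacyl-tRNA synthetases, core histones, purine and pyrimidine biosynthesis, and RNA polymerase II with its tail kinases held no call in either direction. They had 15, 39, 5, 11, 17 and 26 tested members. How many of these members other fits called was not counted. Counts of list members from other fits, given below, stand beside other totals. Without asp1-D333A replicate 3 the fit called 733 coding genes higher and 512 lower of 4986 tested. With total counts only it called 223 higher and 414 lower of 4979. Leaving out 1 of the 6 libraries gave 177 to 384 higher and 152 to 259 lower.

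**Figure D2:**
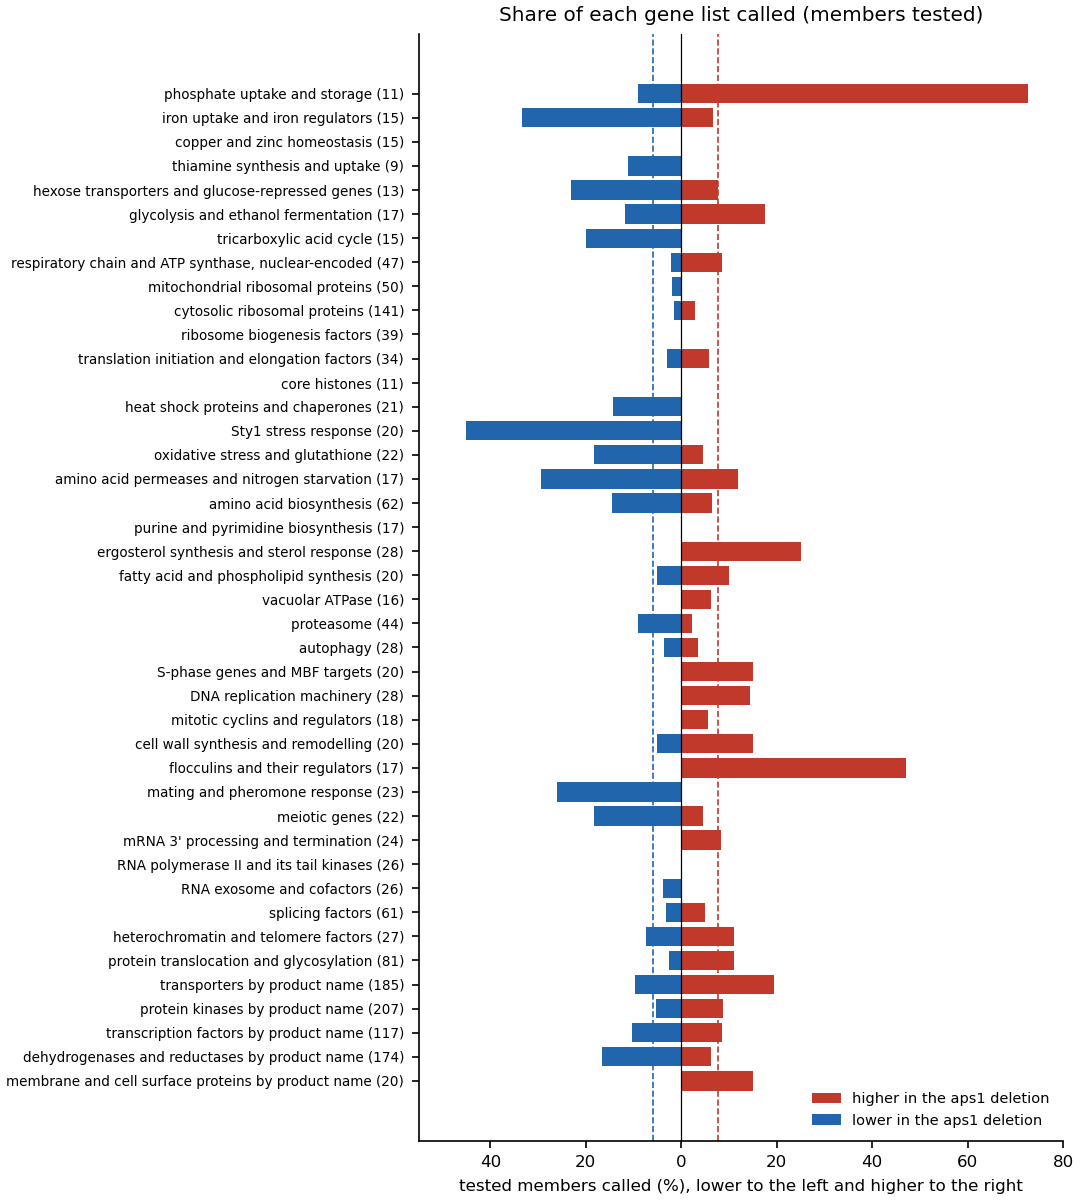
Percentage of the tested members of each list that were called higher (right) or lower (left) in the aps1 deletion than in WT, for lists with at least 9 tested members, with dashed lines at 7.71% and 5.94% for all tested coding genes. Phosphate genes, with pho1, pho84 and tgp1 among them, reach 72.7% higher, and Sty1 stress genes 45% lower.

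Of the phosphate genes other than pho1, pho84 and tgp1, 5 rose as well. Of 11 listed genes, all tested, 8 were higher and 1 was lower, with a median log2 fold change of 0.42 against 0.02 over all tested coding genes. The calls include the 3 named genes, whose rise was known when the list was made. The largest rise outside them was that of SPBPB2B2.06c on chromosome II, annotated as a phosphoprotein phosphatase, at 113, 122 and 126 CPM in the deletion libraries against 17.6, 20.97 and 18.6 CPM in WT (log2 fold change 2.66, adjusted p 4.5e-04, SE 0.28). The predicted phosphate transporter gene pho841 had 316, 391 and 384 CPM in the deletion and 192, 190.0 and 200.4 CPM in WT, with no overlap between the groups (log2 fold change 0.91, adjusted p 5.1e-06, SE 0.08). Its relative pho842 rose by 0.42 on the log2 scale, and vtc2 and vtc4, for subunits of the complex that stores phosphate as polyphosphate at the vacuole, rose by 0.41 and 0.40. The fall was that of csk1, for a kinase that activates a cyclin-dependent kinase, with 17.5, 19.6 and 16.2 CPM in the deletion and 23.7, 21.9 and 22.9 CPM in WT (log2 fold change -0.36). Leaving out any 1 of WT replicates 5 and 6 and aps1 deletion replicates 2 and 3 ended the call of pho842. Leaving out any 1 of WT replicates 4, 5 and 6 and aps1 deletion replicates 1 and 3 ended that of csk1. Neither pho7, for a transcription factor of the phosphate response, nor the ubiquitin ligase gene pqr1 was called (log2 fold changes -0.01 and 0.14). The genes pho1, pho84 and tgp1 together took 1.01% to 1.11% of the counts in the deletion libraries, against 0.336% to 0.404% in WT, and the other 8 listed genes took 0.209% to 0.223%, against 0.164% to 0.172% in WT.

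Several genes of reductive iron uptake went the other way. Of 15 iron genes, 5 were lower (33.3%) and 1 was higher, with a median log2 fold change of -0.19. Iron is reduced at the cell surface and then taken up by a ferroxidase and a permease working as a pair. The permease gene fip1, named by a rule that required no overlap between the groups, was at 18.3, 20.6 and 23.2 CPM in the deletion libraries and 46.7, 42.3 and 38.1 CPM in WT (log2 fold change -1.03, adjusted p 6.4e-05, SE 0.12). Its partner fio1, the ferroxidase, had 4.31, 3.996 and 5.09 CPM in the deletion and 9.204, 9.798 and 9.05 CPM in WT (log2 fold change -1.07, adjusted p 6.4e-05, SE 0.12). The ferric reductase gene frp1 had 1.42, 2.77 and 2.17 CPM in the deletion and 5.19, 4.39 and 4.58 CPM in WT (log2 fold change -1.16, adjusted p 0.0014, SE 0.19). All 3 fell to roughly the same degree, in genes of low to moderate level. The lowest log2 fold change in the list, -1.87, belonged to a member that was not called. A second listed ferric reductase gene, frp2, was not called, with 4.72, 4.94 and 4.44 CPM in the deletion and 4.797, 5.46 and 5.31 CPM in WT (log2 fold change -0.14, adjusted p 0.64). The glutaredoxin gene grx4, which acts on the iron regulators, fell (-0.43), and so did pcl1, for a vacuolar iron transporter (-0.19). The higher call was sib3, of siderophore synthesis, at 0.22. The repressor gene fep1 was not called, with 146, 156 and 169 CPM in the deletion and 178, 172 and 168 CPM in WT, nor were the siderophore transporter genes str1, str2 and str3 (log2 fold changes -0.76, -0.15 and -0.84). Calls of pcl1 and sib3 were each lost without at least 1 of WT replicates 4, 5 and 6 and aps1 deletion replicates 2 and 3. Under the same fit the 15 genes of copper and zinc homeostasis held no call. The member with the highest level among them, the zinc transporter gene zhf1, had 452, 532 and 555 CPM in the deletion and 621, 641 and 599 CPM in WT (log2 fold change -0.27, adjusted p 0.061). Those groups did not overlap, yet the difference did not pass the threshold.

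Hexose transporter genes changed in opposite directions. The genes ght1 to ght8 encode a family of sugar transporters, and 3 of the 8 were called. The high-affinity glucose transporter gene ght5 was at 61.4, 66.3 and 63.6 CPM in the deletion libraries and 191, 153 and 203 CPM in WT. Of the WT libraries, replicate 5 was the lowest, and the log2 fold change was -1.52 (adjusted p 5.0e-07, SE 0.10). The rarer ght1 had 2.44, 3.44 and 2.17 CPM in the deletion and 6.92, 5.56 and 5.05 CPM in WT (log2 fold change -1.12, adjusted p 0.0023, SE 0.20). By contrast ght2 rose, with 272, 282 and 309 CPM in the deletion and 185, 175 and 192 CPM in WT (log2 fold change 0.64, adjusted p 0.0054, SE 0.12). The member with the highest counts, ght8, was not called, at 1326, 1532 and 1595 CPM in the deletion and 1316, 1317 and 1298 CPM in WT. Of the glucose-repressed genes and their regulators, rst2, for a transcription factor that activates them, fell slightly (log2 fold change -0.23), and fbp1, for fructose-1,6-bisphosphatase, was not called (0.20, adjusted p 0.38). The whole list of 13 had 1 higher and 3 lower calls. The call of rst2 was lost whichever of the 6 libraries was left out.

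**Figure D3:**
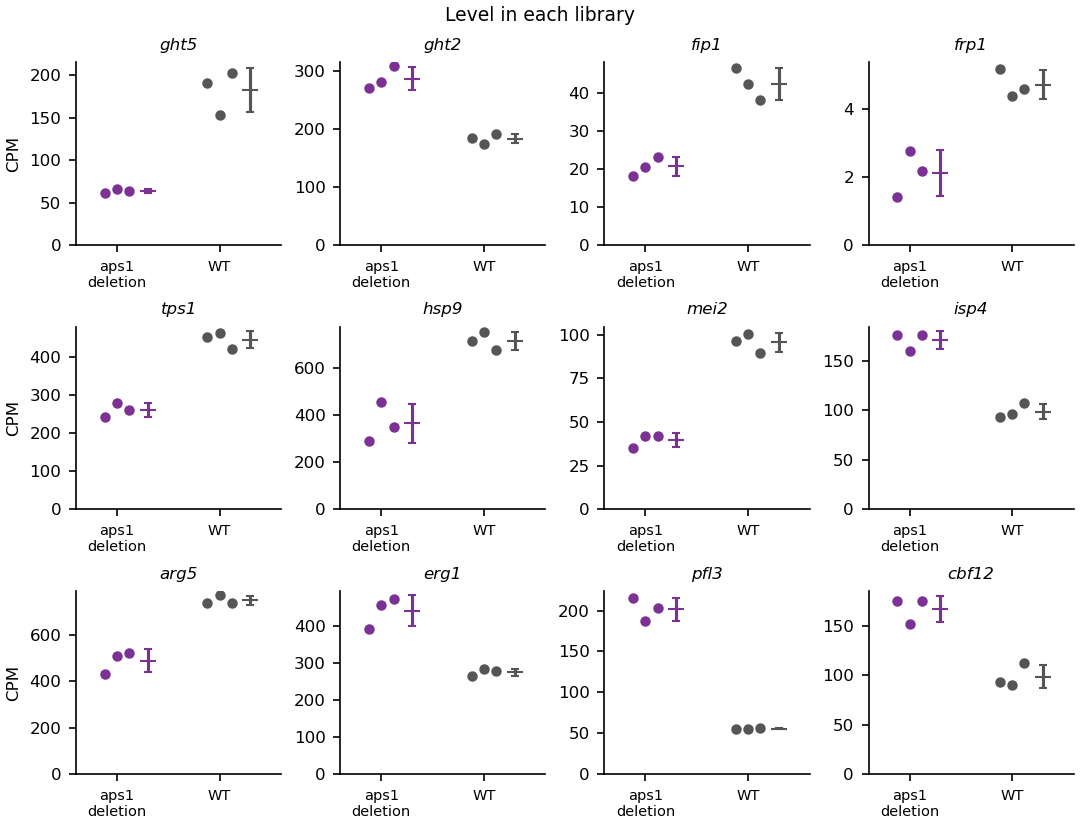
CPM in each library for 12 genes, with the 3 aps1 deletion libraries left of the 3 WT libraries in each panel and, beside them, the mean with its SD; vertical axes start at 0. The genes were named by a rule that required no overlap between the groups, and ght5, for example, is at 61.4 to 66.3 CPM in the deletion and 153 to 203 CPM in WT.

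Glycolytic genes were higher in some deletion libraries than in others. Of 17 genes of glycolysis and ethanol fermentation, 3 rose and 2 fell, and the median log2 fold change was 0.30. Hexokinase 2, hxk2, which starts glycolysis, had 877, 1028 and 1042 CPM in the deletion and 687, 712 and 711 CPM in WT (log2 fold change 0.48, adjusted p 0.0056, SE 0.10). Phosphofructokinase, pfk1, rose by 0.38 and pyruvate decarboxylase, pdc101, by 0.47 on the log2 scale. The falls were those of adh4, an alcohol dehydrogenase gene, with 238, 244 and 269 CPM in the deletion and 394, 409.9 and 405 CPM in WT (log2 fold change -0.69, adjusted p 0.0011), and of eno102, the minor enolase gene (-0.93). The major enolase gene eno101 had 4509, 5932 and 5651 CPM in the deletion and 3272, 3319 and 3202 CPM in WT without being called (log2 fold change 0.72, adjusted p 0.061, SE 0.23). Together the 17 genes took 5.16%, 6.15% and 6.05% of the counts in deletion replicates 1, 2 and 3, against 4.66% to 4.83% in WT, so deletion replicate 1 lay apart from the other deletion libraries. Without it 8 of the 17 were called higher, beside 384 of 4987 coding genes. Without asp1-D333A replicate 3 the list had 9 higher calls, beside 733 of 4986 coding genes. Calls of pdc101 and eno102 were each lost without at least 1 of WT replicates 4, 5 and 6 and aps1 deletion replicates 2 and 3.

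The tricarboxylic acid cycle had no higher call and 3 lower calls among 15 genes (20%), with a median log2 fold change of -0.03. The first enzyme, citrate synthase, showed the largest of these: cit1 was at 434, 497 and 483 CPM in the deletion and 747, 782 and 745 CPM in WT (log2 fold change -0.69, adjusted p 0.0069, SE 0.14). The aconitase gene aco1, for the next step, fell too (-0.33), and so did dld1, for a dehydrogenase subunit shared by several complexes (-0.24). The end of dld1 overlaps SPAC1002.10c on the same strand in the annotation, so part of its reads is of uncertain origin. Without WT replicate 5, 1 of these 3 calls was left. Nuclear-encoded genes of the respiratory chain and ATP synthase had 4 higher and 1 lower calls among 47, and mitochondrial ribosomal proteins 1 lower call, mrpl15 (-0.38), among 50. Both are near or under the background. The largest respiratory call was atp1, for a subunit of ATP synthase, at 0.30, with cyt1, for cytochrome c1, at 0.23 and atp15, for another ATP synthase subunit, at -0.24. Of the higher calls 1 was left without WT replicate 4, 5 or 6 or aps1 deletion replicate 2. Calls of aco1, dld1, mrpl15, cyt1 and atp15 were each lost without at least 1 of WT replicates 4, 5 and 6 and aps1 deletion replicates 2 and 3.

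Genes that respond to nitrogen supply shifted in both directions. Among 17 genes for amino acid permeases and nitrogen starvation, 5 were lower (29.4%) and 2 were higher. The permease gene isp5 was at 8.88, 8.32 and 9.42 CPM in the deletion libraries and 14.9, 19.1 and 20.2 CPM in WT (log2 fold change -1.03, adjusted p 2.1e-04, SE 0.13). The oxygenase gene isp7, the vacuolar protease gene isp6 and the ammonium transporter gene amt1 fell with it (log2 fold changes -0.73, -0.46 and -0.45). The fifth lower call, mei2, also stands among the meiotic genes. The oligopeptide transporter gene isp4 differed in the other direction, with 175, 159.7 and 176 CPM in the deletion and 92.9, 95.9 and 107 CPM in WT (log2 fold change 0.79, adjusted p 2.1e-05, SE 0.08). It shared this direction with fnx1, for a vacuolar transporter, at 0.29. The transcription factor gene gaf1, which acts in the nitrogen response, was at 260.2, 281 and 307 CPM in the deletion and 304, 284 and 263 CPM in WT and was not called. Neither were the permease genes cat1, agp3 and put4 (log2 fold changes -0.09, 0.14 and 0.24). The call of fnx1 was lost when any 1 of WT replicates 4, 5 and 6 and aps1 deletion replicates 2 and 3 was left out.

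Biosynthesis of amino acids had 9 lower (14.5%) and 4 higher calls among 62 genes, with a median log2 fold change of -0.07. Of the lower calls, 4 were genes of the arginine pathway. The gene arg5, for the small subunit of the arginine-specific carbamoyl-phosphate synthase, was at 431, 510.1 and 522 CPM in the deletion and 739.8, 771 and 737 CPM in WT (log2 fold change -0.62, adjusted p 0.012, SE 0.14). The other subunit gene arg4 fell as well (-0.57), as did arg12, for argininosuccinate synthase (-0.61), and arg3, for ornithine carbamoyltransferase (-0.50). Serine and histidine genes were also among the lower calls: ser3, for the first enzyme of serine synthesis, had a log2 fold change of -0.57, and his2, his4 and his3 had -0.38, -0.35 and -0.32. The remaining lower call was leu1, of leucine synthesis (-0.26), and the higher calls were cys11, a cysteine synthase gene (0.41), ser2, met9 and met10 (0.29, 0.21 and 0.20). The lower calls numbered 4 without WT replicate 5, 5 without WT replicate 6 and 18 with scaling by total counts only, and the higher calls ran from 1 without WT replicate 5 or 6 to 8 without asp1-D333A replicate 3. Over all coding genes, total counts only gave 414 lower calls and leaving out asp1-D333A replicate 3 gave 733 higher calls. Among 6 tested marker genes used for auxotrophy, arg3, his3 and leu1 were the lower calls and none was higher; a single one was left without WT replicate 5 or 6 or aps1 deletion replicate 2. The call of met9 was lost whichever of the 6 libraries was left out. Calls of arg4, arg12, his2, his3, leu1, ser2 and met10 were each lost without at least 1 of WT replicates 4, 5 and 6 and aps1 deletion replicates 1, 2 and 3. The 17 tested genes of purine and pyrimidine biosynthesis held no call, and their most abundant member gua1 had 1200, 1293 and 1332 CPM in the deletion and 1232, 1254 and 1207 CPM in WT.

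Some stress genes were lower in the deletion. The kinase Sty1 and the transcription factor Atf1 switch on a common set of genes in many stresses, and 9 of 20 genes of this response were lower (45%) while none was higher and 11 were not called, with a median log2 fold change of -0.20. The sulfiredoxin gene srx1 had 6.39, 5.72 and 5.69 CPM in the deletion and 13.9, 12.2 and 11.03 CPM in WT (log2 fold change -1.06, adjusted p 1.5e-04, SE 0.13). The gene tps1, for an enzyme that makes the protective sugar trehalose, was at 243, 278 and 261 CPM in the deletion and 453, 462 and 419 CPM in WT (log2 fold change -0.77, adjusted p 1.6e-05, SE 0.07). The small heat shock protein gene hsp9 was at 292, 455 and 351 CPM in the deletion and 713, 752 and 677 CPM in WT (log2 fold change -0.96, adjusted p 0.0059, SE 0.18). In none of these 3 genes did the groups overlap, as the rule for naming them required, and deletion replicate 2 was the highest deletion library for both tps1 and hsp9. Each of the 3 overlaps an annotated feature on its own strand, so some of its reads may belong to that feature. The other lower calls were the catalase gene ctt1, at a log2 fold change of -0.64, the nuclear envelope protein gene ish1 at -0.64, the trehalase gene ntp1 at -0.44, sro1 at -0.43, atf1 itself at -0.36 and the glutathione peroxidase gene gpx1 at -0.25. The kinase gene sty1 was not called, at 484, 493 and 511 CPM in the deletion and 473, 466 and 467 CPM in WT, and neither was gpd1, of glycerol synthesis (0.03). The call of gpx1 was lost when any 1 of WT replicates 4 and 5 and aps1 deletion replicates 1 and 3 was left out.

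The neighbouring lists of chaperones and of oxidative stress overlapped with this response. Among 21 heat shock proteins and chaperones 3 were lower (14.3%) and none was higher. These were hsp9, the cytosolic chaperone gene ssa1, with 37.2, 55.3 and 53.9 CPM in the deletion and 114, 117 and 82.9 CPM in WT (log2 fold change -1.10, adjusted p 0.044, SE 0.29), and mcp60 (-0.28), a mitochondrial chaperonin gene that overlaps SPAC12G12.03 on its strand. A single one of the 3 was left without WT replicate 4 or 5 or without any 1 of aps1 deletion replicates 1, 2 and 3, and 7 genes were lower without asp1-D333A replicate 3. The heat shock factor gene hsf1 had a log2 fold change of -0.01, hsp90 one of -0.11 and hsp104 one of -0.28, none called. Among 22 genes of oxidative stress and glutathione, 4 were lower and 1 was higher, and of the lower ones ctt1, srx1 and gpx1 also stand in the stress list. The fourth was the glutathione reductase gene pgr1 (-0.21), and the higher call was pmd1, a drug efflux transporter gene (0.19). The lower calls numbered 2 without WT replicate 4 or 5 or without aps1 deletion replicate 1 or 3. Calls of ssa1, pgr1 and pmd1 were lost whichever of the 6 libraries was left out. Calls of mcp60 and gpx1 were each lost without at least 1 of WT replicates 4 and 5 and aps1 deletion replicates 1, 2 and 3.

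**Figure D4:**
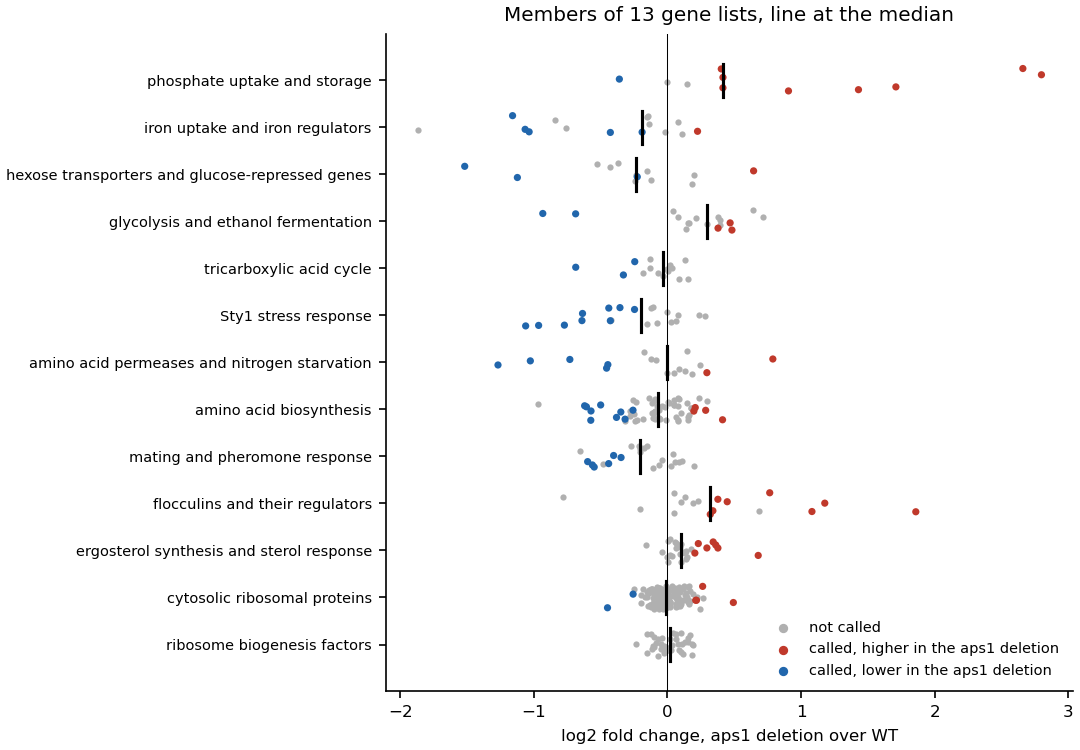
Log2 fold change, aps1 deletion over WT, of every tested member of 13 of the lists, 1 point a gene with random vertical jitter, coloured by direction where called, and a black line at each list's median. Sty1 stress, iron, and mating genes lie mostly left of 0, flocculation and phosphate genes mostly right of it, and ribosomal genes cluster around 0.

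Genes for flocculation, the clumping of cells through surface glycoproteins, rose together in number: 8 of 17 were higher (47.1%) and none was lower, with a median log2 fold change of 0.32. The glycoprotein gene pfl3 had 215, 187 and 203 CPM in the deletion and 55.3, 55.5 and 56.2 CPM in WT (log2 fold change 1.86, adjusted p 3.9e-09, SE 0.07). Another surface glycoprotein gene, pfl8, had 100.5, 119 and 118 CPM in the deletion and 50.2, 45.8 and 53.5 CPM in WT (log2 fold change 1.18, adjusted p 3.0e-05, SE 0.12). Among the regulators, mbx2, for a transcription factor that activates flocculation genes, had 51.6, 56.2 and 57.1 CPM in the deletion and 27.4, 27.9 and 22.6 CPM in WT (log2 fold change 1.08, adjusted p 2.3e-05, SE 0.11). For all 3 genes the absence of overlap between the groups was a condition of the rule that named them. The transcription factor gene cbf12, also an activator of cell adhesion, rose by 0.77, and pfl7 and gsf2, which encode cell surface proteins, by 0.45 and 0.38 on the log2 scale. The kinase gene lkh1, known for holding flocculation down, was also higher (0.34), as was ldb1, for a LIM domain binding protein (0.32). Without WT replicate 5 or without aps1 deletion replicate 3, 4 of the 17 were called. The most abundant glycoprotein gene, pfl2, was not called at 2010, 2207 and 2270 CPM in the deletion and 1914, 1849 and 1778 CPM in WT (log2 fold change 0.23, adjusted p 0.075). Calls of pfl7, gsf2, lkh1 and ldb1 were each lost without at least 1 of WT replicates 5 and 6 and aps1 deletion replicates 1, 2 and 3.

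Of 20 genes for cell wall synthesis and remodelling 3 were higher and 1 was lower. Here chs1, described above as a neighbour of aps1, and chs2, for a chitin synthase-like protein, moved apart: chs2 had 35.6, 34.4 and 39.2 CPM in the deletion and 56.5, 53.2 and 49.4 CPM in WT (log2 fold change -0.54, adjusted p 0.0018, SE 0.09). The listed pwp1 (0.38) is annotated as a WD repeat protein, not as a cell wall enzyme. The third higher call was exg3, a glucanase gene (0.33). The call of exg3 was lost when any 1 of WT replicates 5 and 6 and aps1 deletion replicates 1, 2 and 3 was left out.

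Genes of mating and meiosis were lower where called, with 1 exception. Of 23 tested mating genes 6 were lower (26.1%) and none was higher, with a median log2 fold change of -0.20. The transcription factor gene ste11, which turns on the mating programme, had 52.5, 56.4 and 55.7 CPM in the deletion and 77.3, 68.7 and 63.4 CPM in WT (log2 fold change -0.35, adjusted p 0.043, SE 0.11). The gene of the pheromone MAP kinase, spk1, had 43.4, 43.8 and 49.2 CPM in the deletion and 67.1, 72.4 and 66.9 CPM in WT (log2 fold change -0.60, adjusted p 9.7e-04, SE 0.09). The other calls were map1 (-0.56), map2 (-0.55), the formin gene fus1 (-0.44) and mam2 (-0.40). All are genes of low level here: fus1, the most abundant, had 13.8, 11.7 and 10.4 CPM in the deletion and 14.2, 15.5 and 18.9 CPM in WT. A single mating gene was left without aps1 deletion replicate 2 or 3, 2 without WT replicate 5, 3 without WT replicate 6 or aps1 deletion replicate 1, and 13 were called without asp1-D333A replicate 3, where 1245 coding genes were called. Among 22 tested meiotic genes 4 were lower and 1 was higher. Of these mei2, for the RNA-binding protein that starts meiosis, was the best covered, with 34.9, 42.1 and 41.97 CPM in the deletion and 96.5, 101 and 89.4 CPM in WT (log2 fold change -1.27, adjusted p 1.1e-06, SE 0.09). The other lower calls were the recombinase gene dmc1 (-1.46), the septin gene spn6 (-1.39) and meu6 (-0.98), and the higher call was the septin gene spn5 (0.62, adjusted p 0.045). These too were at low levels, with meu6, the most abundant, at 4.97, 3.16 and 4.71 CPM in the deletion and 7.92, 8.73 and 8.79 CPM in WT. Without WT replicate 5 or aps1 deletion replicate 3, 2 of the 4 lower calls were left. The meiotic gene meu6 lies opposite clr4, with overlapping ends. Calls of ste11, map1, map2, fus1, mam2, dmc1, spn6 and spn5 were each lost without at least 1 of WT replicates 4, 5 and 6 and aps1 deletion replicates 1, 2 and 3.

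Sterol synthesis had higher calls and no lower one. Of 28 genes of ergosterol synthesis and the sterol response 7 were higher (25%), with a median log2 fold change of 0.10. Squalene monooxygenase, erg1, which makes the first oxygenated intermediate of the pathway, had 393, 457 and 473 CPM in the deletion and 265, 283 and 279 CPM in WT (log2 fold change 0.68, adjusted p 3.4e-05, SE 0.07). The sterol reductase gene erg24 had 152, 146 and 141 CPM in the deletion and 112, 115 and 111 CPM in WT (log2 fold change 0.38, adjusted p 8.7e-04, SE 0.06). For erg24 and erg1 alike, groups without overlap were required by the rule that named them. The scaffold gene erg28 rose by 0.36, erg4 by 0.34, erg7, for the enzyme that closes the sterol rings, by 0.29, scp1 by 0.23 and the haem synthesis gene hem13 by 0.20 on the log2 scale. The transcription factor gene sre1 was not called, with 296, 322 and 335 CPM in the deletion and 314, 313 and 302 CPM in WT, and hmg1, for the reductase that feeds the pathway, had a log2 fold change of 0.05. Calls of scp1 and hem13 were each lost without at least 1 of WT replicates 4, 5 and 6 and aps1 deletion replicates 2 and 3.

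Lipid and glycan genes showed fewer calls. Among 20 genes of fatty acid and phospholipid synthesis, lsd90 fell, at 19.8, 23.3 and 20.3 CPM in the deletion and 37.3, 43.4 and 35.4 CPM in WT (log2 fold change -0.87, adjusted p 0.0077, SE 0.18). The inositol transporter gene itr1 rose by 0.25, and so did gpt2 (0.49), which by its annotation acts in protein glycosylation rather than in lipid synthesis and overlaps SPBC15D4.03 on its strand. Among 81 genes of protein translocation and glycosylation 9 were higher (11.1%) and 2 were lower, and 18 were higher without asp1-D333A replicate 3, where 733 coding genes were higher. The higher calls were 6 genes for steps of the lipid-linked sugar donor of N-glycosylation, alg1, alg2, alg9, alg11, alg12 and sec59, and gpi7, gpi12 and gpi14 of glycolipid anchor synthesis. The mannosyltransferase gene alg1 had 111, 119.9 and 129 CPM in the deletion and 86.8, 90.3 and 93.9 CPM in WT (log2 fold change 0.41, adjusted p 0.0017), and gpi12, the largest of the 9 at 0.53, had 30.9, 31.97 and 31.4 CPM in the deletion and 21.9, 20.6 and 22.99 CPM in WT. The lower calls were gpi8 (-0.29) and sec66 (-0.26). The single call among 16 genes of the vacuolar ATPase was vma13 (0.21). Calls of itr1, alg12, sec59, gpi7, gpi8, sec66 and vma13 were each lost without at least 1 of WT replicates 4, 5 and 6 and aps1 deletion replicates 1, 2 and 3.

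Cell cycle and replication genes were higher where called. Of 20 S-phase genes and targets of the transcription factor MBF 3 were higher (15%): mcb1, for a protein that binds the replicative helicase, with 34.97, 36.8 and 35.1 CPM in the deletion and 23.99, 23.2 and 21.5 CPM in WT (log2 fold change 0.64, adjusted p 2.7e-04, SE 0.09), the MBF subunit gene cdc10 (0.33) and the cyclin gene cig2 (0.32). The mcb1 gene overlaps SPAC1687.05 on the same strand. Of 28 genes of the replication machinery 4 were higher (14.3%), namely cdc45, mcm6, mcm2 and rfc5, with log2 fold changes of 0.42, 0.36, 0.30 and 0.22. A single call among them was left without WT replicate 5 or without aps1 deletion replicate 2, and 2 without WT replicate 6. The call of cdc10 was lost whichever of the 6 libraries was left out. Calls of cdc45, mcm6 and rfc5 were each lost without at least 1 of WT replicates 4, 5 and 6 and aps1 deletion replicates 1, 2 and 3. Among 18 mitotic cyclins and regulators the call was cig1, a further cyclin gene, at 191, 190.4 and 196 CPM in the deletion and 147, 135 and 143 CPM in WT (log2 fold change 0.44, adjusted p 0.0045, SE 0.09). The 11 core histone genes held no call, and htb1, the most abundant, had 1944, 2577 and 2644 CPM in the deletion and 2145, 2085 and 2316 CPM in WT, with deletion replicate 1 below all WT libraries and the other deletion libraries above them.

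The machinery of transcription and RNA processing held few calls. Among 24 genes of mRNA 3′ processing and termination, a process named in the title of the series, 2 were higher (8.33%, near the background). The gene ssu72, for a phosphatase of the RNA polymerase II tail, had 17.3, 15.2 and 15.7 CPM in the deletion and 10.9, 11.5 and 12.5 CPM in WT (log2 fold change 0.46, adjusted p 0.016, SE 0.12). The gene seb1, for a protein that selects poly(A) sites, had 168, 184 and 201 CPM in the deletion and 151, 154 and 148 CPM in WT (log2 fold change 0.29, adjusted p 0.01, SE 0.07). None of the 26 genes of RNA polymerase II and its tail kinases was called, with rpb1, for the largest subunit, at 546, 587 and 616 CPM in the deletion and 618, 609 and 571 CPM in WT. Of 26 genes of the exosome and its cofactors 1 was lower, cti1 (-0.26), and of 61 listed as splicing factors 3 were higher and 2 were lower. In that list smb1, for an Sm core protein of the spliceosome, and the helicase gene prp43 rose (0.28 and 0.24), and cwf7 and smd3 fell (-0.37 and -0.28). The third higher call, sap1 (0.36), is annotated as a switch-activating protein and was included by its name; a single higher call was left without WT replicate 5 or 6 or aps1 deletion replicate 2 or 3. Of 27 heterochromatin and telomere factors 3 were higher (1 with total counts only) and 2 were lower. The higher ones were clr4, for the histone H3 lysine 9 methyltransferase, with 47.9, 46.1 and 44.3 CPM in the deletion and 33.5, 34.5 and 35.6 CPM in WT (log2 fold change 0.42, adjusted p 0.0043, SE 0.08), epe1, for a factor that limits heterochromatin (0.31), and ccq1, of the telomere complex shelterin (0.27). The lower ones were stc1, which links the RNA interference machinery to the methyltransferase complex (-0.51), and the telomere-linked helicase gene tlh2, which has near-identical copies so that its own level is uncertain. The call of smd3 was lost whichever of the 6 libraries was left out. Calls of ssu72, seb1, cti1, prp43, cwf7, sap1, ccq1 and stc1 were each lost without at least 1 of WT replicates 4, 5 and 6 and aps1 deletion replicates 1, 2 and 3.

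Protein synthesis and turnover genes stayed near the level of WT as groups. Of 141 genes for cytosolic ribosomal proteins 4 were higher (2.84%) and 2 were lower (1.42%), and their median log2 fold change was -0.01. They took 16.1% to 16.7% of the counts in the deletion libraries and 16.7% to 17.2% in WT. The calls were rps1401 (0.49), rps1001 (0.26), rps901 and rpl302 upward, and rpl4102 (-0.45) and rps2501 downward. A single one of the higher calls was left without WT replicate 5 or 6 or without aps1 deletion replicate 2 or 3, and 2 without WT replicate 4. None of the 39 ribosome biogenesis factors was called, with nog1 at a log2 fold change of 0.04. Of 34 translation factors tif301, for the largest subunit of initiation factor eIF3, rose with 806, 810.1 and 812 CPM in the deletion and 604, 649 and 636 CPM in WT (log2 fold change 0.36), tif51, for eIF5A, rose by 0.27 and tif45, for the cap-binding factor eIF4E, fell (-0.24). The 44 proteasome genes had 1 higher and 4 lower calls, of which rpn10 (-0.37), rpt2 (-0.26) and pre10 (-0.25) were the largest. A single lower call was left without WT replicate 5 or aps1 deletion replicate 2 or 3, and 2 without WT replicate 4 or 6. Of 28 autophagy genes atg1801 rose (0.35) and atg13, for a regulator of the kinase that starts autophagy, fell (-0.27); among 9 thiamine genes thi4, of thiamine phosphate synthesis, fell (-0.28, adjusted p 0.049). Calls of atg1801 and thi4 were lost whichever of the 6 libraries was left out. Calls of rps1001, rps901, rpl302, rpl4102, rps2501, tif51, tif45, rpn10, rpt2, pre10 and atg13 were each lost without at least 1 of WT replicates 4, 5 and 6 and aps1 deletion replicates 1, 2 and 3.

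The last lists were drawn from the product names in the annotation rather than from pathways. Transporters and permeases stood out among them by number: of 185 tested, 36 were higher (19.5%) and 18 were lower (9.73%), and phosphate, iron, hexose and nitrogen genes described above are among them. The higher calls numbered 19 without aps1 deletion replicate 3, 21 without aps1 deletion replicate 2 and 22 without WT replicate 5 or 6, and the lower calls 10 without WT replicate 5 or aps1 deletion replicate 2 or 3. The largest fall was that of SPBC23G7.13c, annotated as a urea transporter, with 1.32, 0.666 and 0.758 CPM in the deletion and 5.24, 6.23 and 4.01 CPM in WT (log2 fold change -2.48, adjusted p 0.012, SE 0.52). Of 174 dehydrogenases and reductases 29 were lower (16.7%) and 11 were higher. The lower calls numbered 19 without WT replicate 5 or 6 or aps1 deletion replicate 2, and the higher ones 6 without aps1 deletion replicate 2. The lower calls include SPAC26H5.09c, of the Gfo/Idh/MocA oxidoreductase family, at 311, 412 and 416 CPM in the deletion and 748, 830.4 and 769 CPM in WT (log2 fold change -1.04, adjusted p 3.9e-05, SE 0.11), and SPACUNK4.17 (-0.98). Kinases by name had 18 higher (8.70%) and 11 lower calls (5.31%) among 207, close to the background. Among them sid1, of the septation network, and dak2, for dihydroxyacetone kinase, fell (-0.54 and -0.60). The higher kinase calls numbered 5 without WT replicate 6 or aps1 deletion replicate 2 and 8 without WT replicate 5 or aps1 deletion replicate 3, and the lower ones 4 to 7 without those libraries. Among 117 transcription factors 10 were higher and 12 were lower, with grt1 the largest fall by the naming rule (-0.74, adjusted p 0.043). The lower ones numbered 3 to 6 when 1 of the 6 libraries was left out, and the higher ones 5 without aps1 deletion replicate 2 and 6 without WT replicate 5 or 6. Of 20 membrane and cell surface proteins 3 were higher, pfl3, pfl7 and pfl8. The call of grt1 was lost whichever of the 6 libraries was left out. Calls of SPBC23G7.13c and pfl7 were each lost without at least 1 of WT replicates 4, 5 and 6 and aps1 deletion replicates 2 and 3.

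Genes beyond those named in these lists were also among the largest rises. The gene ecl3, for a small protein of a family linked to lifespan in fission yeast, had 24.2, 25.97 and 27.3 CPM in the deletion and 6.36, 5.26 and 7.33 CPM in WT (log2 fold change 2.03, adjusted p 5.0e-07, SE 0.13). The histone chaperone gene nap1 was far better covered, with 528, 573 and 585 CPM in the deletion and 244, 254 and 256 CPM in WT (log2 fold change 1.16, adjusted p 4.1e-07, SE 0.07). The RNA-binding protein gene msa1 had 158, 157 and 174 CPM in the deletion and 67.6, 58.7 and 63.8 CPM in WT (log2 fold change 1.37). For ecl3, nap1 and msa1, groups without overlap were required by the rule that named them. SPAC1039.02, annotated like SPBPB2B2.06c as a phosphoprotein phosphatase, rose with 959, 1092 and 1257 CPM in the deletion and 412, 412 and 479 CPM in WT (log2 fold change 1.34, adjusted p 1.0e-06, SE 0.10). The transporter genes mfs3 and mfs1 rose by 1.25 and 1.09, the uncharacterized SPBC25B2.08 and SPBC3H7.05c by 1.46 and 1.18, new25 by 1.11 and SPAC27D7.09c by 1.06 on the log2 scale. The call of SPAC27D7.09c was lost when any 1 of WT replicates 4 and 6 was left out.

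The largest falls were of a similar mixed kind. The gene rtc3, of the SBDS family, had 32.2, 45.2 and 43.2 CPM in the deletion and 119.6, 122 and 85.3 CPM in WT, with WT replicate 6 the lowest of the WT libraries (log2 fold change -1.44, adjusted p 1.2e-04, SE 0.15). SPCC70.08c, annotated as a methyltransferase, had 21.3, 23.3 and 26.9 CPM in the deletion and 75.6, 74.5 and 85.9 CPM in WT (log2 fold change -1.72, adjusted p 0.0094, SE 0.30). SPBC1271.07c, annotated as an N-acetyltransferase, had 19.7, 21.98 and 19.98 CPM in the deletion and 60.7, 60.2 and 68.6 CPM in WT (log2 fold change -1.62, adjusted p 2.4e-07, SE 0.09). It lies 2 coding genes away from tgp1, which rose. The acetyltransferase gene aca1 and the ubiquitin hydrolase gene ubp11 fell to a like degree (-1.20 and -1.18), and aca1 had 47.9, 53.9 and 52.7 CPM in the deletion and 116, 119 and 119 CPM in WT. SPAC11D3.01c, SPAC11D3.19, SPAC5H10.07, SPBC1685.17 and SPAC637.03, which are uncharacterized or named only by a protein family, had log2 fold changes of -1.32, -1.21, -1.25, -1.27 and -1.14, and SPBC1685.17 overlaps SPNCRNA.1367 on its strand. The retrotransposon Tf2-11 fell too (-1.69), and it has 14 near-identical copies, so that the change cannot be placed on this copy.

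At the right end of chromosome I a few genes had large fold changes, and this stretch was chosen after its values were seen. Among the coding genes that passed the naming rule the largest rise was that of ftm4, which lies there, for a protein with transmembrane helices. It had 142, 96 and 118 counts in the deletion libraries and 7, 2 and 3 counts in WT (log2 fold change 4.86, adjusted p 1.3e-06, SE 0.36). Without WT replicate 4 the log2 fold change of ftm4 was 5.55, and 3 near-identical copies make its own level uncertain. Nearby gdt1, for a GDT1-like protein, had 3019, 2892 and 3100 counts in the deletion and 8, 13 and 18 counts in WT, a log2 fold change of 7.86 (SE 2.34). It was not called (adjusted p 0.072) in the fit that takes the spread from all 9 libraries, in which the asp1-D333A libraries had 11, 5008 and 229 counts. In the fit on the 6 libraries alone its adjusted p was 1.8e-15. The gene was thus high in all 3 deletion libraries and also in asp1-D333A replicate 2, whereas asp1-D333A replicate 1 lay within the range of WT.

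Further genes of this stretch showed a similar pattern. SPAC186.06 had 52, 52 and 64 counts in the deletion, 2, 628 and 19 counts in asp1-D333A replicates 1, 2 and 3, and 0, 2 and 0 counts in WT. SPAC750.01, annotated as an aldo/keto reductase, had 250, 181 and 193 counts in the deletion, 57, 911 and 279 counts in asp1-D333A and 19, 32 and 32 counts in WT. SPAC186.04c, called in the deletion (adjusted p 0.02), had 46, 49 and 34 counts there, 1, 43 and 4 counts in asp1-D333A and 1, 3 and 2 counts in WT. Its call was lost when any 1 of WT replicates 4, 5 and 6 and aps1 deletion replicates 2 and 3 was left out. Further in, the direction was the opposite while asp1-D333A replicate 2 was again, of the asp1-D333A libraries, the nearest to the deletion libraries. SPAC186.02c fell in the deletion (adjusted p 0.028), with 1, 3 and 1 counts in the deletion, 38, 3 and 26 counts in asp1-D333A and 22, 12 and 18 counts in WT. Its call was lost when any 1 of WT replicates 4 and 6 and aps1 deletion replicates 1, 2 and 3 was left out. SPAC869.01, not called, had 1, 0 and 0 counts in the deletion, 36, 3 and 17 counts in asp1-D333A and 3, 7 and 12 counts in WT, and pfl9, not called either, had 245, 217 and 183 counts in the deletion, 428, 142 and 321 counts in asp1-D333A and 336, 322 and 458 counts in WT. In SPAC869.03c, also not called, the deletion had 2, 6 and 9 counts, asp1-D333A had 23, 10 and 23 and WT had 15, 12 and 22. The sharing did not hold for every gene. In ftm4 and SPAC750.06c, which rose in the deletion, the asp1-D333A libraries had at most 4 counts. Of the 20 coding genes nearest this end 11 were tested, with 3 higher and 1 lower calls; with the 6 libraries alone 10 were tested, with 6 higher and 3 lower, and gdt1, SPAC750.01 (adjusted p 5.2e-08), SPAC186.06 (9.3e-07), pfl9 (0.0013) and SPAC869.03c (0.033) were then called. At the left end of chromosome I 9 of 20 were tested, with 1 higher and 0 lower calls, at the left end of chromosome II 9, with 0 higher and 2 lower, and at its right end 11, with 1 higher and 4 lower. With the 6 libraries alone these 3 ends had 7, 9 and 11 tested genes, with 2 higher and 0 lower, 0 higher and 3 lower, and 1 higher and 5 lower calls. Over all tested coding genes the main fit called 7.71% higher and 5.94% lower. The fit on the 6 libraries alone called more, 701 higher and 424 lower of 4946. With 1 strain per group, the deletion and the strain that carries it cannot be told apart. The library asp1-D333A replicate 2, of a strain labelled without the deletion, had 2073 counts of aps1, between the 1827 and 2131 counts of asp1-D333A replicates 1 and 3. Whether it is the library its label says was not tested beyond this count. The heterochromatin genes clr4 and epe1 were higher in the deletion, by 0.42 and 0.31 as given above, and the part of silencing in the counts at this end was not tested.

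**Figure D5:**
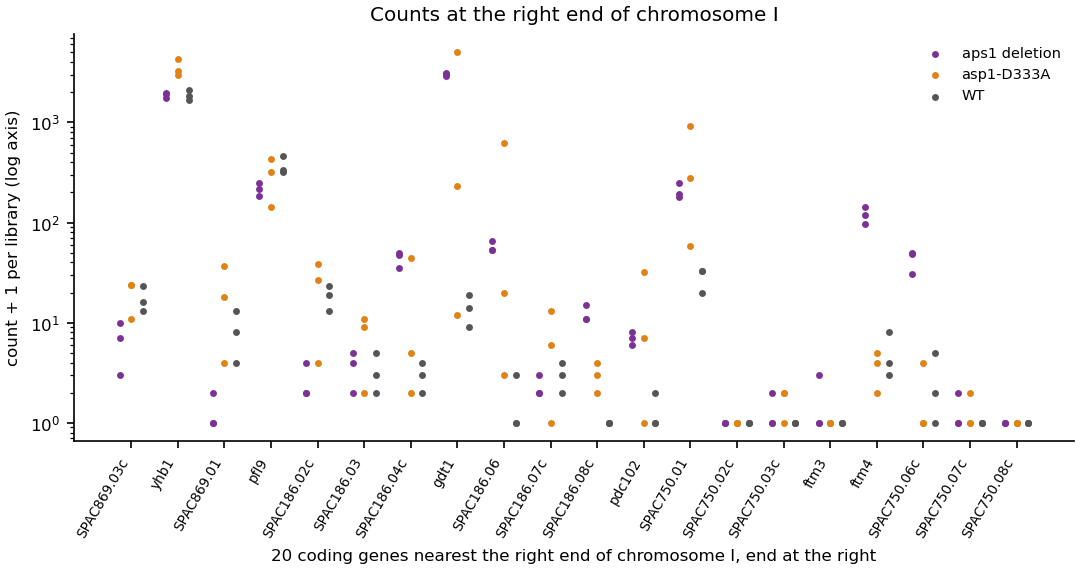
Read count plus 1 in each library, on a log axis, for the 20 coding genes nearest the right end of chromosome I, in annotation order with the end at the right; aps1 deletion libraries stand left of asp1-D333A and WT libraries for each gene. For gdt1 the deletion libraries and asp1-D333A replicate 2 lie between 2892 and 5008 counts, and WT between 8 and 18.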

How the data were processed

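The deposited values were whole-number read counts per feature, 1 column per library, with no normalization. Per the labels' protocols, the libraries were stranded and made from poly(A)-selected RNA. The submitters' processing notes name HISAT2 2.1.0, SAMtools, HTSeq 0.10.0, DESeq2 and the build ASM294v2, without roles. The strand setting of the counting and the treatment of reads with several matches are not given in the sources used here.

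The table had 6987 lines for 6986 identifiers, since 1 identifier stood on 2 lines, which were summed. Of these, 6846 were matched to the RefSeq annotation of ASM294v3, 13 through a synonym, and 140 were not. As that build differs from the submitters', it served for names, products, chromosomes, gene order and overlaps, and no coordinate or sequence is given. Of 5146 identifiers with a coding prefix, 37 were not protein-coding. Near-identical copies (at least 95% identity over at least 100 nucleotides, BLAST 2.17.0) were found for 110 coding genes.

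Counts were analysed with edgeR 4.0.16 in R 4.3.3. Low features were removed with filterByExpr at a minimum count of 10, which left out 130 coding genes, and library sizes were scaled with TMM. A group means model was fitted to all 9 libraries with robust quasi-likelihood dispersions, in which the common biological coefficient of variation was 0.0917. Genes were called at a Benjamini-Hochberg adjusted p under 0.05. Total counts were 18244492 to 20246140 over the 6 libraries, so that in abundant genes the spread between replicates limits precision more than counting error does. The procedure was tested on simulated counts.

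Genes named were the 15 largest rises and the 15 largest falls among called genes that averaged 50 counts or more and whose groups did not overlap, leaving out aps1, pho1, pho84 and tgp1; the 3 largest such changes in each list; and, in a list with none, its most abundant member. Other genes named in a list were chosen after their values were seen. The members and the 44 lists were chosen with earlier results of these data known, and a further list is not reported here. Alternatives were other scalings, other filters on low counts, DESeq2 1.42.0, coding identifiers alone, the 6 libraries alone and leaving out single libraries. Promoter motifs were not searched.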

Additional observations from a re-analysis of the deposited data

How the results depend on the processing

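No paired analysis was possible because the deletion libraries are numbered 1 to 3 and the WT libraries 4 to 6, so they share no replicate number. The number of coding genes called moved most with the libraries that entered the fit, which also changes the filter and the scaling. It was 1125 with the 6 libraries alone and 1245 without asp1-D333A replicate 3, and between 332 and 614 when 1 of the 6 libraries was left out. Higher calls numbered 223 with total counts only, 701 with the 6 libraries alone, 733 without asp1-D333A replicate 3, and 177 to 384 when 1 of the 6 was left out. Lower calls numbered 512 without asp1-D333A replicate 3 and 152 to 259 when 1 of the 6 was left out. The count of genes changed at least 2-fold stayed between 49 and 80 over the 15 alternatives, against 73. The 680 calls were all among the 1245, and 331 of the 332 were among the 680. Of 122 genes named by the rule 116 were called, and 73 of these kept their call under every alternative run. No called one changed direction. The rule took called genes with the largest changes and groups without overlap. The 116 calls and the kept directions therefore follow largely from the rule and are no test of the calls. Of 1830 refits of the 122 named genes 199 ended a call, 166 of them with 1 library fewer, where fewer samples enter the test. For genes at a few counts, such as those at the chromosome ends, counting error limits the size of a change as well.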

Other observations

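Some groups were picked out after their values were seen and are given as values only. Of 6 genes for making and breaking down trehalose 4 were lower in the deletion (66.7%) and none was higher, against 5.94% and 7.71% of all tested coding genes. Besides tps1 and ntp1, already counted among the stress genes, SPAC22F8.05 had 39.5, 41.4 and 43.3 CPM in the deletion and 76.7, 70.1 and 58.6 CPM in WT, a log2 fold change of -0.73, and tps3 fell as well (-0.64). Genes with SPX domains or of polyphosphate breakdown differed in direction. The genes spx2 and gde1 rose by 0.63 and 0.44, and SPBC713.07c, annotated as a polyphosphatase, by 0.36, while the exopolyphosphatase gene ppx1 had 94.1, 86.5 and 87.95 CPM in the deletion and 121, 125 and 129 CPM in WT, a log2 fold change of -0.48. A few picked genes of arginine breakdown and nitrogen metabolism are set beside the lower arginine synthesis genes. The arginase gene aru1 rose by 0.39, the ornithine transaminase gene car2 by 0.48, with 1278, 1392 and 1399 CPM in the deletion and 972, 986 and 968 CPM in WT, and the transaminase gene uga1 by 0.51, while gdh1, for the glutamate dehydrogenase that fixes ammonium, fell (-0.69). The uracil-regulated genes urg1, urg2 and urg3 rose by 1.05, 1.05 and 0.41. Among inositol phosphate kinase genes ipk1 rose by 0.44 and asp1 by 0.34 (adjusted p 0.048), and asp1 overlaps SPCC1672.05c on its strand. The call of asp1 was lost whichever of the 6 libraries was left out. Calls of tps3, aru1, uga1 and ipk1 were each lost without at least 1 of WT replicates 4, 5 and 6 and aps1 deletion replicates 1, 2 and 3.

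Of 103 tested genes whose symbols start with mug or meu, named for high expression in meiosis, 15 were lower (14.6%) and 5 were higher (4.85%) in the deletion, against 5.94% and 7.71% of all tested coding genes. The lower ones numbered 8 without aps1 deletion replicate 2 and 9 without WT replicate 5 or aps1 deletion replicate 3, and the higher ones 1 without aps1 deletion replicate 2 or 3, 2 without WT replicate 6 and 3 without WT replicate 5. Of 5 tested Tf2 retrotransposons 4 were lower (80%), 2 of them without WT replicate 6 or without aps1 deletion replicate 2, and all 5 have near-identical copies. Of 314 tested genes with the product name uncharacterized protein 33 were higher (10.5%) and 34 were lower (10.8%). The higher ones numbered 16 without aps1 deletion replicate 2, 18 without WT replicate 5 or aps1 deletion replicate 3 and 21 without WT replicate 6, and the lower ones 20 without WT replicate 6 and 22 without aps1 deletion replicate 3. Near tgp1, SPBC1271.08c fell (-0.75), as SPBC1271.07c did. The scaffold genes isu1 and isa1 of iron-sulfur cluster assembly fell (-0.43 and -0.45), beside the lower iron uptake genes. The small genes ecl2 and ecl3 went apart, with ecl2 at 114, 125 and 135 CPM in the deletion and 218, 197 and 210.1 CPM in WT, a log2 fold change of -0.74. The phospholipase gene plb2 had 1258, 1452 and 1486 CPM in the deletion and 873, 877 and 906 CPM in WT, a log2 fold change of 0.66. The call of SPBC1271.08c was lost whichever of the 6 libraries was left out. The call of isu1 was lost when any 1 of WT replicates 4 and 5 and aps1 deletion replicates 1 and 3 was left out.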
